A study of Mus with 51 samples.

Results

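At 6 h, T cells of the condition with the agonist peptide MCC, sorted as low for the activation marker CD69, were compared with T cells of the condition without peptide. The labels do not show whether each CD69-low cell had engaged the peptide. The comparison holds 4 of the 51 libraries of the series, chosen by their labelled sorting phenotype and time: 2 of MCC CD69-lo cells at 6 h and 2 of no-peptide (NP) cells at 6 h. As recorded by the submitters, the cells of all groups came from lymph nodes of 5C.C7 mice on a B10.A background that lacks Rag2. Their CD4 T cells carry a transgenic T cell receptor (TCR) for moth cytochrome c. Every group shares the deletion and the receptor. Without Rag2 an animal cannot assemble antigen receptors of its own, so it makes no B cells and no T cells beside the transgenic ones. Poly-adenylated RNA of sorted cells was sequenced. Beside them stand, at 6 h, MCC CD69-hi (3 libraries), MCC+GP CD69-lo (3), MCC+GP CD69-hi (3) and GP (2), and MCC CD69-lo and NP at 1 h and at 24 h (3 libraries each). The labels do not spell out GP, and the title of the series speaks of self-peptides. They give no age, no peptide dose and no antigen-presenting cell. They also do not say whether replicates came from separate animals. The p-values below therefore measure only a spread between libraries, which the main fit drew from all 51.

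When a TCR binds its agonist on an antigen-presenting cell, kinase, calcium and NF-kB signals switch on immediate-early transcription factors within the hour, and cytokine receptors, cytokines and growth genes follow. CD69 is a surface receptor that appears early after TCR signalling and holds cells in the lymph node, and its level is often used to split cells that have responded strongly from those that have not. A mature dendritic cell, the usual partner of a naive CD4 T cell in a lymph node, carries a transcript programme of its own with CCL22, fascin and costimulatory ligands.

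The 2 MCC CD69-lo libraries held 5225827 and 5890052 counts and the 2 NP libraries 5902750 and 5380328, within a series range of 29030 to 10278776. In each group the 2 libraries differed in Xist, the transcript of the inactive X chromosome. In normalised counts per 1000000 (CPM), replicate 1 held 0.374 and replicate 2 435.8 in MCC CD69-lo. In NP, replicate 1 held 0.329 and replicate 2 361.5 CPM. The split falls within the groups and not between them, and it follows the replicate number in both. Replicates 1 and 2 therefore differed in the sex of their source. The main fit did not pair libraries by replicate, and fits with a replicate block are given in the closing section. NP replicate 1 also held more of several response and myeloid transcripts than NP replicate 2: Egr1 stood at 432.5 against 7.04 CPM, and Lyz2, the lysozyme of macrophages, at 39.7 against 2.64 CPM. The transcripts that name a CD4 T cell were present in all 4 libraries. Their summed level over 20 markers was 12730 and 16000 CPM in MCC CD69-lo, against 17370 and 17180 CPM in NP.

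Cells sorted as CD69-low after MCC carried a broad set of raised transcripts, and no gene passed as reduced. Of 17211 genes tested, 365 rose (2.12%) and 0 fell at an adjusted p under 0.05 in edgeR's quasi-likelihood test, with Benjamini-Hochberg adjustment over all genes. Counts of list members that rose against NP are to be read beside that 2.12%. Among the 365, 336 rose by more than 2-fold and 241 by more than 4-fold, and their median log2 fold change was 2.68, against 0.02 over all genes tested. At an unadjusted p under 0.05, 1262 genes were higher and 277 lower in MCC CD69-lo. DESeq2 called 532 higher and 96 lower. The count of rising genes was 112 without NP replicate 2 and 198 without NP replicate 1, and of these 112 and 192 were among the 365. A fit of only the 4 compared libraries called 557 genes higher, 310 of them among the 365, and 33 lower. Among genes described below it did not call Cd69, Nr4a1, Nr4a2, Egr2, Egr3, Myc, Cd5, Cd6, Slamf1, Pdcd1, Tnf, Apol7c, Irf8, Slc7a11 or Hspa5. A fit of only the 6 h groups called 425 higher and 11 lower, and did not call Cd5, Cd6, Tnfsf11, Pdcd1, Tnf, Irf8 or Slc7a11.

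The sort marker itself was measured first. Cd69 had 359 and 479.6 CPM in MCC CD69-lo libraries, against 126 and 33.2 CPM in NP libraries, a log2 fold change of 2.39 ± 0.57 (SE; adjusted p = 0.0135). Both CD69-low libraries lay above both NP libraries, so the cells gated as low for the CD69 protein held more Cd69 RNA than cells without peptide. The call was lost in 4 of 11 alternatives. These were the fit of only the compared groups, that fit with a replicate block, and the fits without NP replicate 2 or without MCC CD69-lo replicate 2. The difference was 1.73 without NP replicate 2 and 2.17 without MCC CD69-lo replicate 2.

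The early TCR response was raised in the CD69-low gate. Of 32 genes on that list, 19 rose and 0 fell, with a median log2 fold change of 2.00. The orphan nuclear receptors of the Nr4a family, which TCR signals induce directly, had large differences. Nr4a3 (chr4:48045078-48086447, RefSeq, GRCm38.p6) had 748 and 1343 CPM in MCC CD69-lo, against 31.8 and 36.8 CPM in NP (4.93 ± 0.41, adjusted p = 2.96e-10). Nr4a1, which encodes Nur77, had 1215 and 2180 CPM, against 153 and 55.4 CPM in NP (4.03 ± 0.65, adjusted p = 1.25e-04). Nr4a2 had 118 and 248 CPM, against 11.0 and 11.8 CPM in NP (4.001 ± 0.49, adjusted p = 1.47e-06). For all 3 genes both CD69-low libraries lay far above both NP libraries, and replicate 2 was the higher of the CD69-low pair. Without NP replicate 2, 10 of the 32 genes rose, without NP replicate 1, 20 did, and with only the compared groups 12 did.

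The Egr genes, zinc finger factors downstream of ERK and calcium, were higher in both CD69-low libraries, and the NP libraries were far apart. Egr3 had 219 and 332 CPM in MCC CD69-lo, against 18.6 and 2.64 CPM in NP (4.68 ± 0.61, adjusted p = 5.15e-06), and Egr2 178 and 228 CPM, against 34.4 and 2.99 CPM (3.43 ± 0.63, adjusted p = 6.93e-04). Egr1 had 1490 and 1123 CPM in MCC CD69-lo, against 432 and 7.04 CPM in NP, and did not pass the test (2.57 ± 0.93, adjusted p = 0.231). The groups do not overlap for any of the 3, but NP replicate 1 stands far above NP replicate 2 in each. Without NP replicate 1 the Egr1 difference was 7.49 (adjusted p = 0.00128), and over all alternatives the adjusted p ran up to 1. Egr2 did not pass without NP replicate 2.

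Other nuclear factors of activation rose with narrower spread. Myc, which drives growth and metabolism of activated T cells, had 165 and 275 CPM in MCC CD69-lo, against 43.5 and 25.0 CPM in NP (2.68 ± 0.30, adjusted p = 5.36e-08). Irf4, a factor whose level follows TCR signal strength, had 298 and 358 CPM, against 95.5 and 60.3 CPM in NP (2.07 ± 0.29, adjusted p = 4.56e-06). The ranges of the groups were separate for both genes. Cdkn1a, the cell cycle inhibitor p21, which activated T cells induce, had 134 and 125 CPM, against 10.4 and 5.45 CPM in NP (4.02 ± 0.46, adjusted p = 3.07e-07). Atf3, a stress and activation factor, had 22.2 and 36.7 CPM, against 2.14 and 2.11 CPM in NP (3.78 ± 0.56, adjusted p = 2.63e-05).

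**Figure D1:**
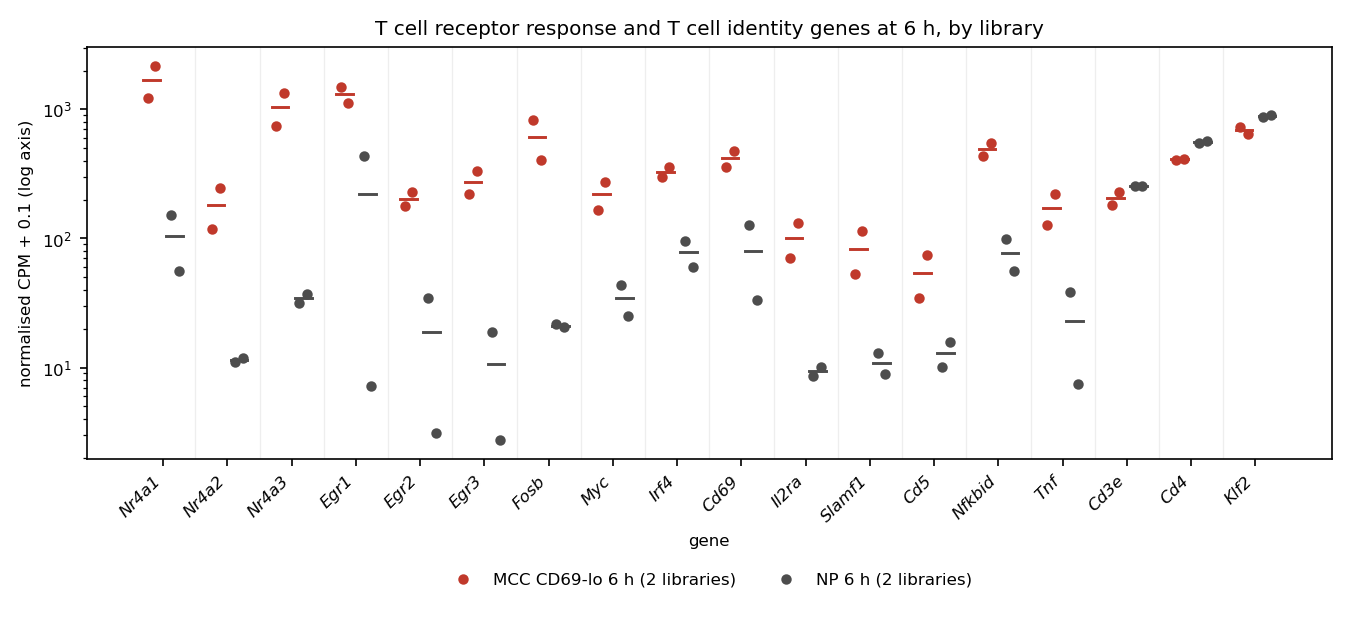
Normalised CPM plus 0.1 on a log axis for 18 genes, with each point 1 library (MCC CD69-lo 6 h in red, left; NP 6 h in grey, right) and each line the group mean. The TCR response genes lie higher in MCC CD69-lo, the 2 NP libraries are far apart for Egr1, Egr2 and Egr3, and Cd3e, Cd4 and Klf2 lie slightly lower in MCC CD69-lo without passing the test.

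Of 17 genes of feedback on the ERK kinase pathway and of its targets, 7 rose and 0 fell (median 1.48). Spred1, an inhibitor of ERK activation, had 51.7 and 44.9 CPM in MCC CD69-lo, against 16.3 and 16.4 CPM in NP (1.56 ± 0.27, adjusted p = 6.99e-05), and Dusp5, a phosphatase that removes ERK's activating phosphates in the nucleus, had 207 and 223 CPM, against 90.6 and 64.0 CPM (1.48 ± 0.27, adjusted p = 2.33e-04). Calcium and NFAT targets counted 10 rising and 0 falling of 19, and their median of 3.13 became 2.55 when 3 members without a count in NP were set to the bound given by 3 counts. Of 25 NF-kB targets 14 rose and 0 fell (median 1.06). They include Nfkbie (1.55) and Nfkbid, which encode regulators of the IkB family. They also include Cd83, Relb, Ebi3, Cd40 and Traf1, which are on the mature dendritic cell list as well. Nfkbid had 432 and 552 CPM in MCC CD69-lo, against 98.3 and 56.1 CPM in NP (2.67 ± 0.34, adjusted p = 1.41e-06). Bcl2a1d and Bcl2a1b, survival genes of a family of near-identical copies between which reads may be split, also rose (4.06 and 3.77). Without NP replicate 2 the counts of these 3 lists were 4, 5 and 7, without NP replicate 1 they were 9, 6 and 11, and Dusp5 and Bcl2a1b did not pass without NP replicate 2.

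Transcripts of surface receptors that activated T cells carry were among those that rose. Which cells carried them here was not tested. Of 22 costimulatory and activation receptors 12 rose and 0 fell (median 1.79). Il2ra, the alpha chain of the high-affinity interleukin-2 receptor, had 70.4 and 132 CPM in MCC CD69-lo, against 8.56 and 10.03 CPM in NP (3.45 ± 0.49, adjusted p = 1.67e-05). Slamf1, a self-binding receptor of activated lymphocytes, had 53.0 and 114 CPM, against 12.8 and 8.79 CPM in NP (2.94 ± 0.33, adjusted p = 5.36e-08). Cd5, which restrains TCR signalling, had 34.5 and 73.8 CPM, against 10.1 and 15.7 CPM in NP (2.08 ± 0.42, adjusted p = 0.00236). In all 3 the second CD69-low library was the higher one, and both lay above NP. Tnfsf11, which encodes the ligand RANKL, had 18.3 and 44.1 CPM, against 4.12 and 5.10 CPM in NP (2.76 ± 0.54, adjusted p = 0.00148), and Cd200, an immunoglobulin-family ligand of T cells and dendritic cells, 24.5 and 17.4 CPM, against 3.79 and 1.58 CPM (2.93 ± 0.45, adjusted p = 3.44e-05). Without NP replicate 1, without NP replicate 2 and without MCC CD69-lo replicate 2 the count of rising receptors was 5, 6 and 5. Cd5 and Tnfsf11 did not pass without NP replicate 1 or MCC CD69-lo replicate 2.

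Among 18 inhibitory receptors and anergy genes 4 rose and 0 fell (median 0.26). Btla, a receptor that dampens T and B cells, had 76.8 and 80.6 CPM in MCC CD69-lo, against 36.9 and 30.8 CPM in NP (1.22 ± 0.22, adjusted p = 2.11e-04). Pdcd1, which encodes PD-1, had 6.91 and 24.5 CPM, against 1.32 and 2.29 CPM in NP (3.13 ± 0.63, adjusted p = 0.00193), and its 2 CD69-low libraries were themselves far apart. The others were Pdcd1lg2, a ligand of PD-1 found on dendritic cells, and Havcr2, which encodes TIM-3 and is also expressed by dendritic cells (2.89 and 4.01). Without NP replicate 1 and without NP replicate 2 the count was 2 in each case. Pdcd1 was lost without NP replicate 1 or MCC CD69-lo replicate 2, Havcr2 without either NP library and Pdcd1lg2 without NP replicate 2.

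Of 32 cytokines and chemokines tested, 9 rose and 0 fell. The 9 include Ccl5, Ccl22 and Il12b, which are also on the mature dendritic cell list. Tnf, an inflammatory cytokine of T cells and myeloid cells, had 126 and 219 CPM in MCC CD69-lo, against 38.7 and 7.39 CPM in NP (2.90 ± 0.58, adjusted p = 0.00198). Lta, which encodes lymphotoxin alpha, had 21.9 and 30.4 CPM, against 3.29 and 3.87 CPM in NP (2.86 ± 0.48, adjusted p = 1.37e-04). Both genes lay higher in both CD69-low libraries. Il2, the growth factor of activated T cells, had 11 counts in the MCC CD69-lo libraries and 0 in the NP libraries, at 0 and 1.84 CPM in MCC CD69-lo, and did not pass the test (adjusted p = 0.549). Il3, a cytokine of activated T cells, had 0 and 9.85 CPM in the MCC CD69-lo libraries and 0 counts in both NP libraries, so its call (adjusted p = 0.00238) rests on 1 library. The median of the list, 3.34, was 2.88 with 8 members without a count in 1 group set to their bound. Without NP replicate 2, 2 cytokines rose and Tnf was not among them, and without NP replicate 1, 6 did.

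**Figure D2:**
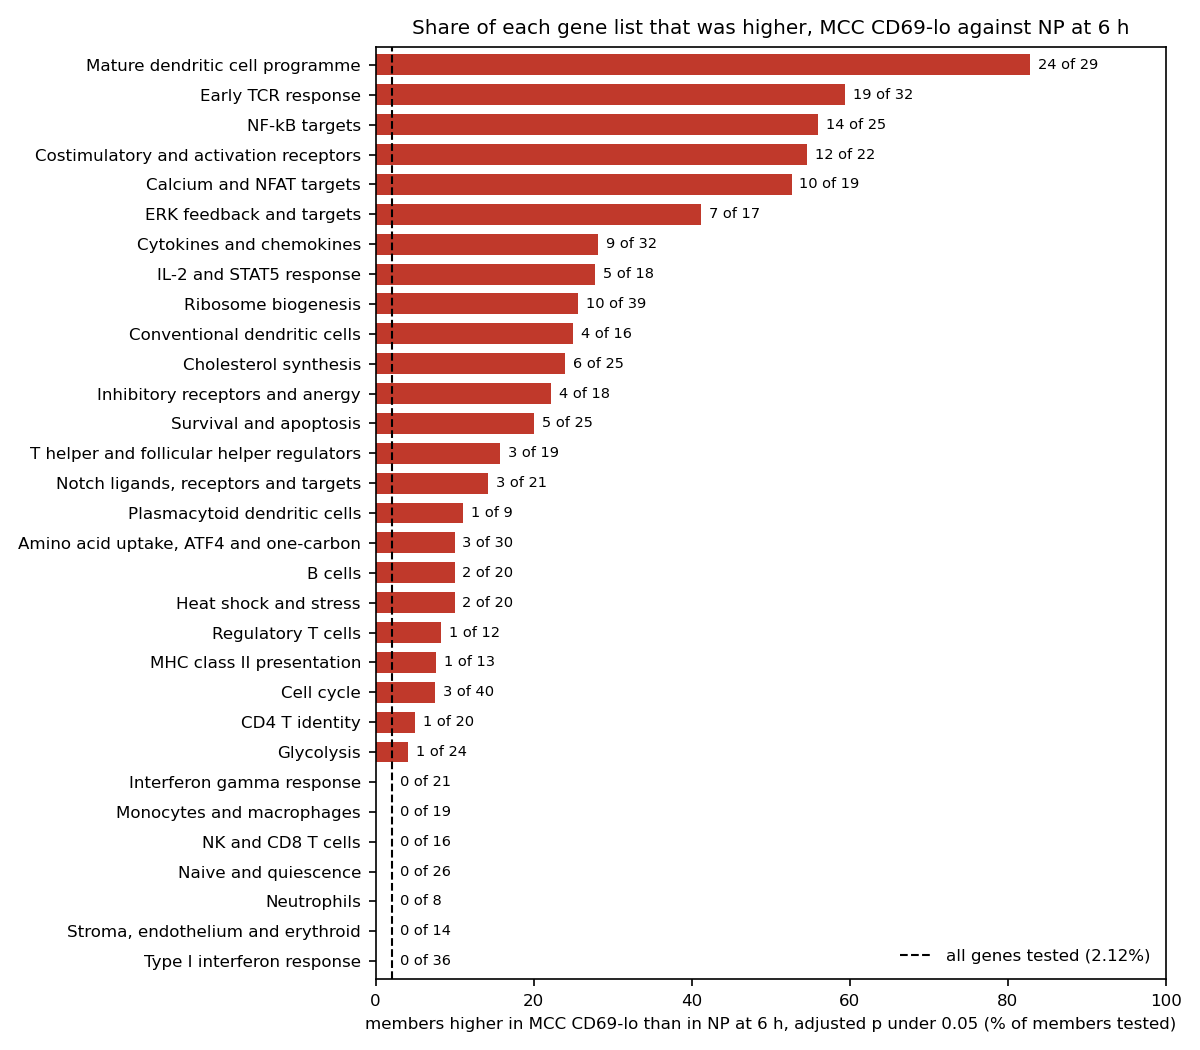
Share of the tested members of each of 31 gene lists that rose in MCC CD69-lo against NP at 6 h at an adjusted p under 0.05, with the count beside each bar. The dashed line is the share over all genes tested, 2.12%; the mature dendritic cell programme, with 24 of 29, and the early TCR response, with 19 of 32, have the longest bars.

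Transcripts typical of mature dendritic cells rose in the CD69-low gate. Of 29 tested genes of that programme 24 rose and 0 fell, with a median log2 fold change of 3.55. Some of these genes, Cd83, Traf1 and Cd200 among them, are also induced in activated T cells and stand on the lists above. Ccl22 (chr8:94745684-94751388), a chemokine that attracts T cells through CCR4, had 401 and 353 CPM in MCC CD69-lo, against 3.13 and 0.704 CPM in NP (7.58 ± 1.01, adjusted p = 6.76e-06). Fscn1, the actin-bundling protein fascin of mature dendritic cells, had 482 and 362 CPM, against 11.2 and 4.75 CPM in NP (5.71 ± 0.84, adjusted p = 3.29e-05). Apol7c, an apolipoprotein L of dendritic cells, had 397 and 307 CPM, against 4.28 and 0 CPM in NP (7.31 ± 0.82, adjusted p = 3.07e-07). For these genes both CD69-low libraries were high and close together, and both NP libraries were low. Samsn1, an adaptor that restrains lymphocyte signalling, had 94.5 and 86.8 CPM in MCC CD69-lo, against 17.3 and 13.7 CPM in NP (2.54 ± 0.27, adjusted p = 1.93e-09). Serpinb6b, a protease inhibitor, and Anxa3, an annexin, had the differences 4.21 ± 0.44 and 5.26 ± 0.61 (adjusted p = 1.70e-09 and 2.25e-07). Without NP replicate 2, 14 of the 29 genes rose, and without NP replicate 1, 18 did.

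Costimulatory molecules and cytokines of dendritic cells were in the same group. Cd40, the receptor for CD40 ligand on antigen-presenting cells, had 166 and 126 CPM in MCC CD69-lo, against 6.75 and 1.41 CPM in NP (5.13 ± 0.69, adjusted p = 7.61e-06). Cd80, a ligand of CD28, had 21.3 and 24.5 CPM, against 1.65 and 0.176 CPM in NP (4.59 ± 0.81, adjusted p = 2.35e-04). Both genes were higher in both CD69-low libraries. Il12b, the p40 subunit of interleukin-12, had 380 counts in the MCC CD69-lo libraries and 3 in NP, a ratio of 131 with a 95% counting interval of 44.6 to 639 (adjusted p = 0.00255). It did not pass without NP replicate 1 or NP replicate 2. The 5 tested members that did not pass were Ccr7, Ccl17, Il4i1, Cd274 and Birc3. Of these, Ccr7, the receptor that guides both mature dendritic cells and naive T cells to the lymph node, was at 521 and 534 CPM in MCC CD69-lo and 535 and 530.1 CPM in NP, and Cd274, which encodes PD-L1, at 485 and 418 CPM in MCC CD69-lo and 390.5 and 227 CPM in NP (adjusted p = 1 and 0.799).

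Markers that define the conventional dendritic cell lineage were measured beside this programme. Of 16 tested, 4 rose and 0 fell (median 1.43): Zbtb46, Flt3, Irf8 and Batf3. Zbtb46, a factor characteristic of conventional dendritic cells, had 39.2 and 31.4 CPM in MCC CD69-lo, against 5.27 and 2.99 CPM in NP (3.08 ± 0.45, adjusted p = 4.73e-06). Flt3, the growth factor receptor of that lineage, had 23.2 and 24.2 CPM, against 3.29 and 0.528 CPM in NP (3.59 ± 0.90, adjusted p = 0.0188). Clec9a and Mgl2, markers of dendritic cell subsets, had 0 counts in both CD69-low libraries. Without MCC CD69-lo replicate 1 and without NP replicate 2 the count was 2 in each case, Irf8 being lost in both, and Flt3 passed in no fit that left out a library. The summed level of the 18 lineage markers was 679 and 521 CPM in MCC CD69-lo, against 274 and 204 CPM in NP, and that of the mature programme was 5288 and 4655 CPM in MCC CD69-lo, against 1950 and 1747 CPM in NP. In bulk RNA, more cells of a type and more RNA per cell cannot be told apart.

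Dll4 (chr2:119325784-119335666) and Jag1, ligands that activate Notch receptors on neighbouring cells, were the Notch genes that rose, together with the Notch target Il2ra, 3 of 21 tested. Dll4 had 78.8 and 54.9 CPM in MCC CD69-lo, against 0.165 and 0.352 CPM in NP, which is 751 counts against 3 and a ratio of 259 with a 95% counting interval of 88.4 to 1260 (adjusted p = 6.48e-07). Jag1 had 33.2 and 34.9 CPM, against 2.47 and 1.05 CPM in NP (4.24 ± 0.69, adjusted p = 6.15e-05). The ranges were separate for both genes. The receptors Notch1 and Notch2 had differences of 0.28 ± 0.28 and 0.19 ± 0.22 and did not pass.

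Markers of other cell types were present, and their part in the differences above was not tested. Of 20 B cell markers, 19 were higher in both MCC CD69-lo libraries than in both NP libraries, as were 24% of all genes tested. Pou2af1, a B cell coactivator, and Fcer2a, the IgE receptor CD23, were the 2 that passed, at 1.60 and 2.69, while 0 passed without MCC CD69-lo replicate 1 or NP replicate 2, 1 without NP replicate 1 and 5 in the fit of only the compared groups. The summed B cell level was 1478 and 966 CPM in MCC CD69-lo, against 749 and 466 CPM in NP. Mice that lack Rag2 make no B cells, yet these markers were present in both groups. The labels name no other source of cells, and where these transcripts came from was not tested. Of 13 MHC class II presentation genes 1 passed, Ifi30, a lysosomal thiol reductase (2.26), which was lost without MCC CD69-lo replicate 1 or NP replicate 2. DESeq2 called 4 of the 13, and the fit of only the compared groups 2. Their sum was 1446 and 948 CPM in MCC CD69-lo, against 568 and 279 CPM in NP, without overlap.

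The summed levels of macrophage and of neutrophil markers overlapped between the groups. Of 19 monocyte and macrophage markers 0 passed in edgeR's fit of all libraries or in DESeq2 (1 higher at an unadjusted p under 0.05), and their sum was 173 and 90.8 CPM in MCC CD69-lo, against 145 and 28.3 CPM in NP. Of 8 neutrophil markers 0 passed in either of these fits (2 higher at an unadjusted p under 0.05), with a sum of 5.17 and 41.3 CPM in MCC CD69-lo, against 2.71 and 5.20 CPM in NP, and Ly6g and Elane had 0 counts in MCC CD69-lo. Of 16 NK and CD8 T cell genes 0 passed in edgeR's fit of all libraries (3 higher at an unadjusted p under 0.05), and 1 passed in DESeq2 and in edgeR without a filter, with only the compared groups or with only the 6 h groups, with Nkg7 and Gzmb at 0 counts in MCC CD69-lo. Of 14 stromal, endothelial and erythroid genes 0 passed in edgeR or DESeq2 (1 in all at an unadjusted p under 0.05), and Hbb-bs, a globin chain, had 43.7 and 1.00 CPM in MCC CD69-lo and 34.4 and 4.397 CPM in NP. Of 9 plasmacytoid dendritic cell genes 1 rose, Runx2, a factor also used by T cells (2.80), and it was lost without NP replicate 2, while 2 rose in the fit of only the 6 h groups.

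**Figure D3:**
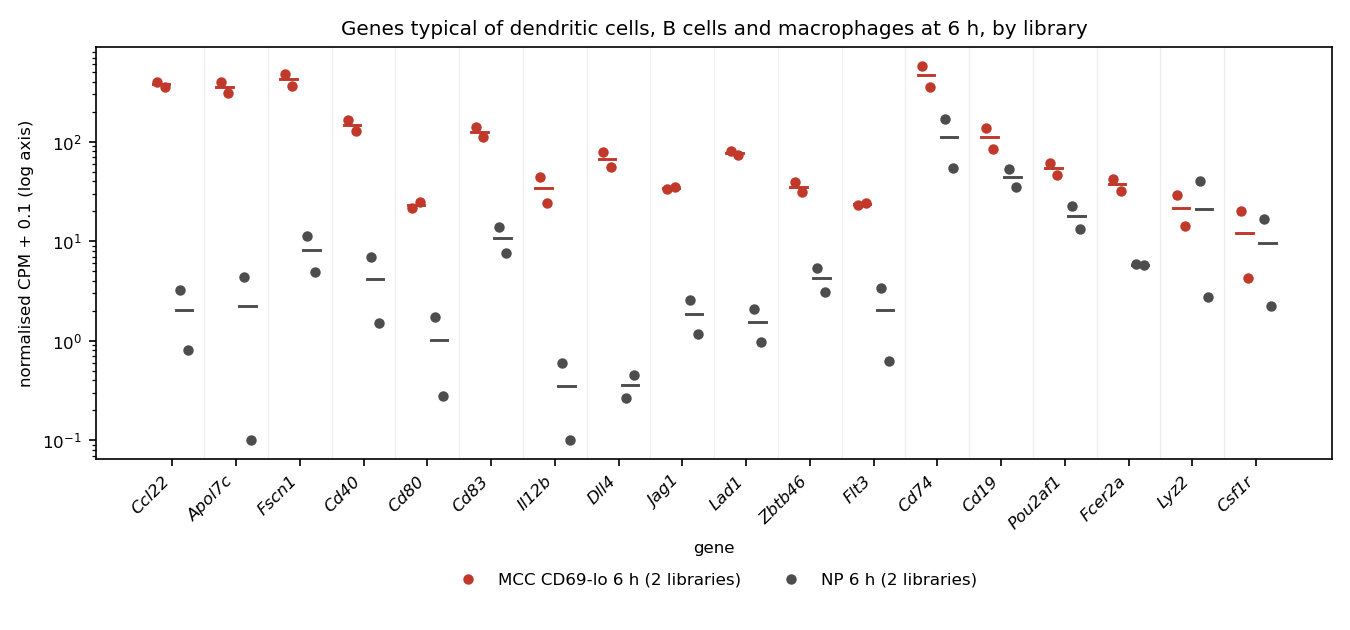
Normalised CPM plus 0.1 on a log axis for 18 genes of dendritic cells, B cells and macrophages, with each point 1 library (MCC CD69-lo 6 h in red, left; NP 6 h in grey, right) and each line the group mean. The dendritic cell genes are separated by more than an order of magnitude in most cases, the B cell genes by less, and Lyz2 and Csf1r of macrophages overlap.

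Ranked by fold among rising genes with at least 5 CPM and separate ranges, the first 12 were Gm8221, Arhgap28, Gm42601, Dll4, Ccl22, Apol7c, Il12b, Synpo2, Procr, F11r, Fscn1 and Lad1. Gm8221, which the RefSeq annotation lists as a pseudogene, had 334 counts in MCC CD69-lo and 1 in NP (ratio 346, 95% counting interval 61.7 to 13700). It lies at chr15:77618968-77627398, near Apol7c at chr15:77524852-77533335, and whether reads of one were assigned to the other was not tested. Arhgap28, which encodes a GTPase-activating protein, had 78 counts in MCC CD69-lo and 0 in NP, at least 26.9-fold higher against a floor of 3 counts over the NP group. Lad1, an anchoring protein first described in basement membranes, had 80.9 and 72.9 CPM, against 1.98 and 0.879 CPM in NP (5.71 ± 0.61, adjusted p = 1.07e-07). Procr, the receptor for protein C, had 120 counts in MCC CD69-lo against 2 in NP, and F11r, a junctional adhesion molecule, had 66 in MCC CD69-lo against 1 in NP. Without NP replicate 2 Synpo2 and F11r did not pass, and F11r also not without NP replicate 1. These intervals and floors cover counting error only.

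Genes of growth and metabolism rose in part, beside 2.12% of all genes tested. Neither the 1 glycolysis gene nor the 3 cell cycle genes are read as a rise of their lists. Of 39 ribosome biogenesis genes 10 rose and 0 fell (median 0.48). Ppan, a factor of large subunit assembly, had 61.4 and 83.5 CPM in MCC CD69-lo, against 29.3 and 24.4 CPM in NP (1.43 ± 0.24, adjusted p = 8.56e-05). Without NP replicate 1, NP replicate 2 or MCC CD69-lo replicate 2 the count was 2, 3 and 2. Of 25 cholesterol synthesis genes 6 rose, with Idi1, an isomerase of the pathway, at 36.4 and 31.2 CPM, against 4.61 and 6.33 CPM in NP (2.62 ± 0.32, adjusted p = 7.84e-08). Their count was 1 without NP replicate 1, 3 without NP replicate 2 and 2 without MCC CD69-lo replicate 2. Of 24 glycolysis genes 1 rose, Pfkfb3, which makes an activator of phosphofructokinase, at 109 and 108 CPM, against 28.3 and 23.4 CPM in NP (2.07 ± 0.26, adjusted p = 1.14e-07). A list of 30 genes covered amino acid uptake, the ATF4 stress response and one-carbon metabolism (amino acid genes below). Of these 3 rose: Atf3, Slc7a11, the cystine transporter, and Slc7a1, a transporter of arginine and lysine (2.90 and 1.42 for the transporters). The count was 7 without MCC CD69-lo replicate 1 and with only the compared groups, 5 with only the 6 h groups, 8 without a filter, 9 with DESeq2, and 2 without NP replicate 2 or MCC CD69-lo replicate 2; Slc7a11 was lost without each library except NP replicate 1. Of 40 cell cycle genes 3 rose, Ccnd2, Tk1 and Mki67, at 0.98, 1.81 and 3.61, and 0 did without NP replicate 2 and 1 without MCC CD69-lo replicate 1, where Ccnd2 and Tk1 were lost. Ccnd2 was also lost without MCC CD69-lo replicate 2, and Mki67 without NP replicate 1.

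Some survival, interleukin-2 response and helper genes rose against NP, where 2.12% of all genes tested did. Of 25 survival and apoptosis genes 5 rose. Bcl2l1, which encodes the survival protein BCL-XL, had 59.2 and 56.1 CPM in MCC CD69-lo, against 12.02 and 13.2 CPM in NP (2.19 ± 0.31, adjusted p = 5.73e-06). Of 18 genes of the interleukin-2 and STAT5 response 5 rose, with Socs2, a feedback inhibitor of cytokine signalling that is also on the mature dendritic cell list, at 74.5 and 70.3 CPM, against 4.61 and 1.58 CPM in NP (4.52 ± 0.62, adjusted p = 6.76e-06). Of 19 helper T cell regulators 3 rose, Pou2af1, Il12rb1, a subunit of the interleukin-12 receptor, and Tbx21, which encodes T-bet (3.55 and 2.72 for the last pair). Pou2af1 is also on the B cell list. Tbx21 had 7.84 and 11.5 CPM, against 0.988 and 1.94 CPM in NP. The helper count was 0 without NP replicate 2 and 1 without each other library, Il12rb1 being lost in all 4 cases and Tbx21 in all but that without MCC CD69-lo replicate 1, and the survival count was 2 without NP replicate 2 and 3 without MCC CD69-lo replicate 1. Of 12 regulatory T cell genes 1 rose, Il2ra. Of 20 heat shock and stress genes 2 rose, Txnrd1, a thioredoxin reductase, and Hspa5, a chaperone of the endoplasmic reticulum (1.11 and 1.06), and 1 did with any 1 library left out: Txnrd1 was lost without NP replicate 1 and Hspa5 without each other library. With no filter on low counts Hspa5 and Irf8 did not pass.

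Naive T cell genes lay lower in MCC CD69-lo without passing the main test. Of 26 genes of naive and quiescent T cells 0 passed in edgeR's fit of all libraries, with 10 lower at an unadjusted p under 0.05. In DESeq2 and in edgeR's fit of only the compared groups 2 passed as lower, and without a filter 1 did. For 20 of them both CD69-low libraries were under both NP libraries, as they were for 20.8% of all genes tested. Klf2, a factor that keeps T cells quiescent and recirculating, had 734 and 644 CPM in MCC CD69-lo, against 873 and 902 CPM in NP (-0.36 ± 0.36, adjusted p = 0.892). Lef1, a factor of naive T cells, had 364 and 387 CPM, against 516 and 573 CPM in NP (-0.53 ± 0.19, adjusted p = 0.167). Both differences are under 1 on the log2 scale and their groups do not overlap. Among lower genes of the whole table, Orai2, a calcium channel subunit, had the smallest adjusted p (-0.56 ± 0.17, adjusted p = 0.0609), and Cdkn1b, the cell cycle inhibitor p27, was among the first 6 (-0.62 ± 0.20, adjusted p = 0.104).

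For 12 of 20 T cell identity genes both CD69-low libraries were under both NP libraries, as they were for 20.8% of all genes tested. For 1 of the 20 both were above, as they were for 24% of all genes tested. None of the 12 passed, and 1 gene of the list rose, Cd6, a receptor that adjusts TCR signalling (1.07 ± 0.30, adjusted p = 0.0436), which did not pass without either NP library or without MCC CD69-lo replicate 2. Cd4 had 406 and 415 CPM in MCC CD69-lo, against 554 and 573 CPM in NP, and Cd3e 182 and 230.3 CPM, against 255 and 256 CPM (-0.46 ± 0.23 and -0.31 ± 0.21, adjusted p = 0.542 and 0.765). Both were lower in both CD69-low libraries than in either NP library. Of 36 type I interferon response genes 0 passed in edgeR's fit of all libraries or in DESeq2 and 0 at an unadjusted p under 0.05 (median 0.05). Of 21 interferon gamma response genes 0 passed in either of these fits and 1 was higher at an unadjusted p under 0.05 (median -0.01), and 1 passed with only the compared groups.

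The CD69-low gate was then set against the CD69-high gate of the same MCC condition, which asks how the cells on either side of the sort differed. Many genes separated the gates: 3880 genes were higher (22.5%) and 3425 lower (19.9%) in MCC CD69-lo than in MCC CD69-hi. Both this comparison and the one with NP use the same CD69-low libraries, so their values are given side by side and not as an overlap. Il2ra had 70.4 and 132 CPM in MCC CD69-lo, against 1210, 1768 and 1434 CPM in MCC CD69-hi (-3.86 ± 0.44, adjusted p = 3.00e-09). Myc had 165 and 275 CPM, against 1367, 1356 and 1316 CPM in MCC CD69-hi (-2.61 ± 0.28, adjusted p = 5.13e-11), and Il2 0 and 1.84 CPM, against 116, 137 and 170.5 CPM in MCC CD69-hi (-7.16 ± 0.64, adjusted p = 6.47e-11). The CD69-low libraries lay between NP and CD69-hi for Il2ra and Myc.

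Of 32 genes of the early TCR response 7 were higher and 12 lower in MCC CD69-lo, where 22.5% and 19.9% of all genes were. Nr4a3 had 748 and 1343 CPM in MCC CD69-lo, against 2469, 2787 and 2540 CPM in MCC CD69-hi (-1.31 ± 0.32, adjusted p = 9.21e-04), and Nr4a1 did not pass (-1.22 ± 0.54, adjusted p = 0.0672). Egr3 ran the other way, with 219 and 332 CPM in MCC CD69-lo, against 87.9, 76.3 and 110.4 CPM in MCC CD69-hi (1.59 ± 0.45, adjusted p = 0.00408), and both CD69-low libraries lay above all CD69-high ones. Cd69 RNA was lower in the low gate (-1.27 ± 0.51, adjusted p = 0.0447), at 359 and 479.6 CPM, against 755, 1167 and 1103 CPM in MCC CD69-hi. Of 39 ribosome biogenesis genes 39 were lower in the low gate, as were 24 of 30 amino acid genes and 19 of 22 receptors.

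Dendritic cell transcripts were present in both gates. Ccl22 had 401 and 353 CPM in MCC CD69-lo, against 473, 259.8 and 529.6 CPM in MCC CD69-hi (-0.16 ± 0.61, adjusted p = 0.869), and Dll4 78.8 and 54.9 CPM in MCC CD69-lo, against 54.7, 23.6 and 73.4 CPM in MCC CD69-hi (0.40 ± 0.47, adjusted p = 0.537). The ranges overlapped for both. Over the 29 genes of the mature programme 5 were higher and 3 lower in the low gate (median 0.15), where 22.5% and 19.9% of all genes were. The summed level of the programme was 5288 and 4655 CPM, against 4221, 2766 and 4503 CPM in MCC CD69-hi. B cell markers summed to 1478 and 966 CPM, against 1662, 897 and 1783 CPM in MCC CD69-hi.

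Naive and interferon genes were higher in the low gate than in the high gate. Of 26 naive genes 22 were higher in MCC CD69-lo than in MCC CD69-hi and 0 lower, where 22.5% and 19.9% of all genes were. Klf2 had 734 and 644 CPM, against 23.8, 19.0 and 28.4 CPM in MCC CD69-hi (4.86 ± 0.36, adjusted p = 6.48e-14). Of 36 type I interferon response genes 33 were higher, and of 21 interferon gamma response genes 19, with 0 lower in either list. Irf1, a factor of the interferon response, had 1007 and 783 CPM in MCC CD69-lo, against 143, 63.0 and 139 CPM in MCC CD69-hi and 916 and 563 CPM in NP.

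**Figure D4:**
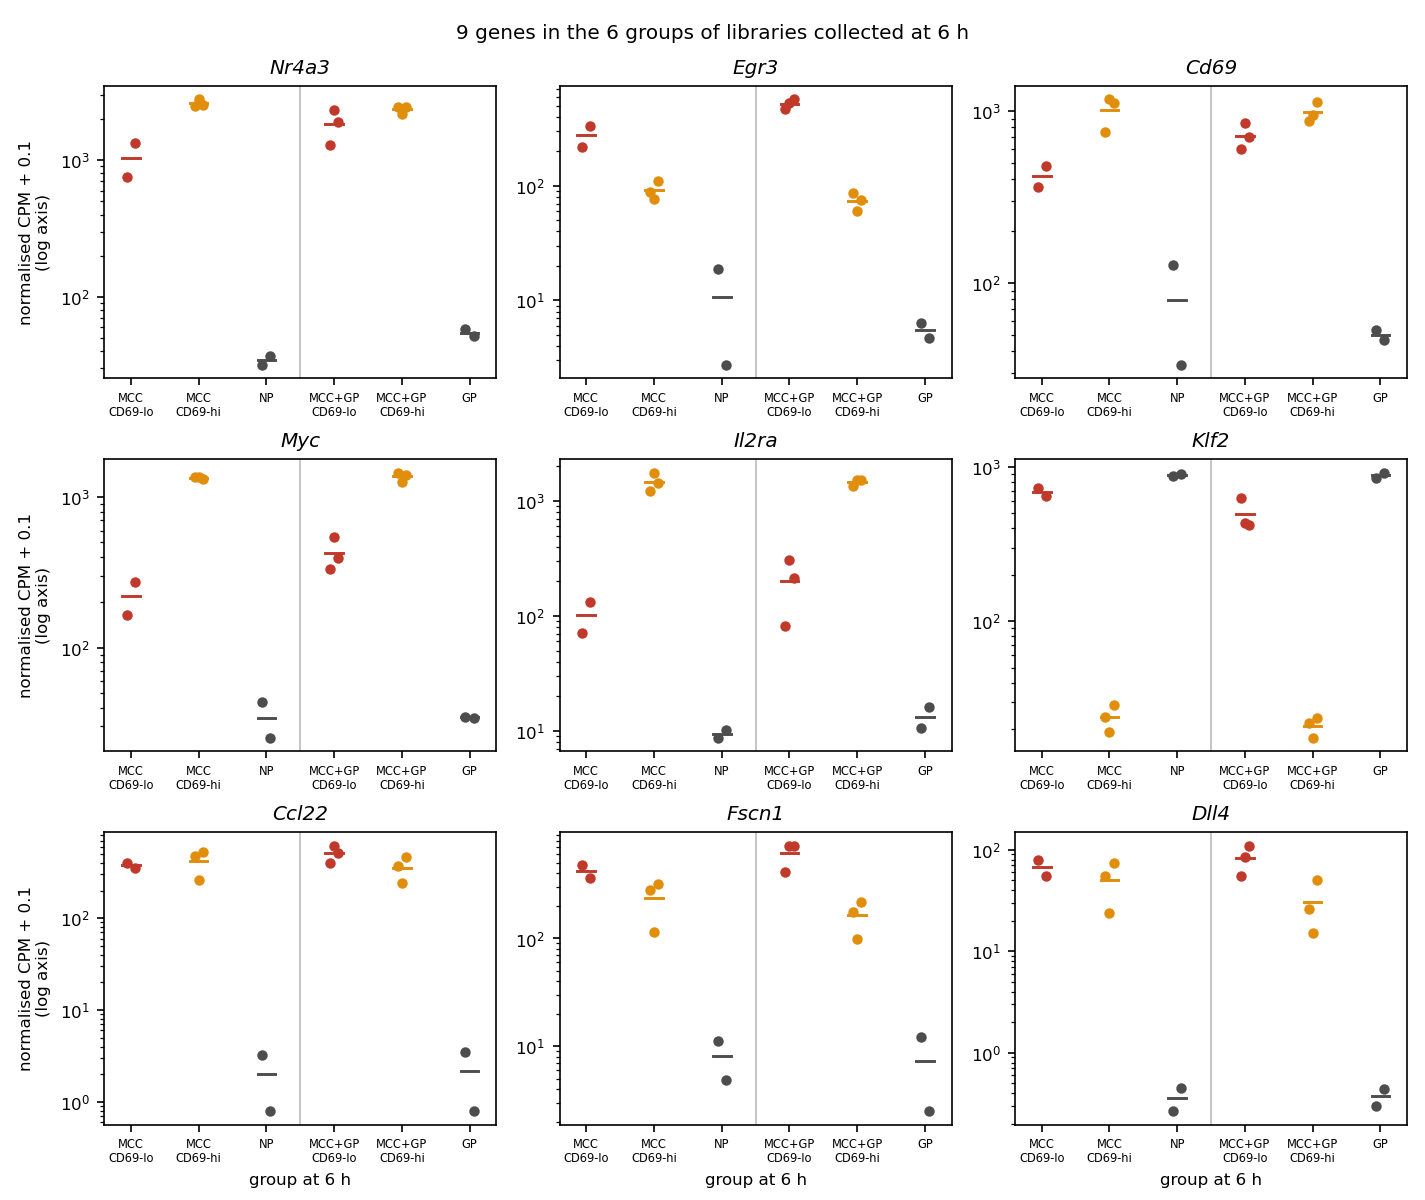
Normalised CPM plus 0.1 on a log axis for 9 genes in the 6 groups collected at 6 h, with each point 1 library and each line the group mean (CD69-lo in red, CD69-hi in orange, NP and GP in grey; groups without GP left of the vertical line, groups with GP right). Myc and Il2ra lie between NP or GP and CD69-hi in CD69-lo, Egr3 is highest in CD69-lo, Klf2 is lowest in CD69-hi, and Ccl22, Fscn1 and Dll4 lie above NP or GP in both gates.

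The same gate was compared in other libraries, in which GP was present on both sides. MCC+GP CD69-lo (3 libraries) against GP (2 libraries) gave 1276 higher genes (7.41%) and 502 lower genes (2.92%). No library is shared with the MCC CD69-lo and NP groups. Of the 365 genes that rose without GP, 356 also rose with it, which is 97.5% of the 365 and 27.9% of the 1276, and 363 had a positive difference. Nr4a3 had 1287, 2340 and 1903 CPM in MCC+GP CD69-lo, against 58.0 and 51.4 CPM in GP (5.07 ± 0.40, adjusted p = 1.26e-11). Ccl22 had 404, 617 and 512 CPM, against 3.43 and 0.688 CPM in GP (8.0 ± 1.01, adjusted p = 7.66e-07). Both GP libraries lay far below all MCC+GP CD69-lo libraries. Egr1 had 1636, 1828 and 1584 CPM in MCC+GP CD69-lo, against 37.1 and 16.2 CPM in GP (5.99 ± 1.09, adjusted p = 2.18e-04). Without GP replicate 2 the count of higher genes was 548 and that of lower genes 98.

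In the MCC+GP pair, which has 1 library more, 12 of 20 B cell markers and 11 of 13 MHC class II genes rose. There 12 of 26 naive genes and 8 of 20 T cell identity genes fell, while over all genes 7.41% rose and 2.92% fell. Cd4 had 367, 269 and 281 CPM in MCC+GP CD69-lo, against 533 and 579 CPM in GP (-0.86 ± 0.20, adjusted p = 0.00229). The difference between the responses with and without GP was tested directly, and 0 genes passed in edgeR in either direction, with 365 at an unadjusted p under 0.05 and 0 in every alternative run, DESeq2 among them.

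In the MCC+GP libraries, the genes that rose in MCC CD69-lo against NP lay on both sides of the gate. Of the 365, 142 (38.9%) were higher in MCC+GP CD69-lo than in MCC+GP CD69-hi, where 25.2% of all genes were higher, and 111 (30.4%) were lower, where 20.9% were. These 142 and 111 genes are 3.28% and 3.08% of the 4331 higher and 3602 lower genes of that comparison, which was added after the data were seen. Egr3 was higher in the low gate there too (2.83 ± 0.44, adjusted p = 1.40e-06), and so were Fscn1 (1.91 ± 0.55, adjusted p = 0.00417) and Dll4 (1.45 ± 0.44, adjusted p = 0.00656). Myc and Il2ra were lower (-1.70 ± 0.23 and -2.88 ± 0.35, adjusted p = 2.03e-08 and 1.40e-08).

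Across time, few genes passed a test of the change in the difference between MCC CD69-lo and NP from 1 to 6 h. With 2 libraries in each group at 6 h, a change that did not pass is not shown to be absent. The test of the change itself gave 11 genes with a greater difference at 6 h (0.0639%) and 1 with a smaller one (0.00581%). Nr4a3 had 6623, 3737 and 2907 CPM in MCC CD69-lo at 1 h, against 614, 806 and 547 CPM in NP at 1 h. Its log2 fold change was 2.75 ± 0.29 at 1 h and 4.93 ± 0.41 at 6 h, and the change was 2.18 ± 0.46 (adjusted p = 0.0417). It did not pass in 11 of 15 alternatives (adjusted p up to 0.587), among them no filter, only the compared groups and every left-out library but MCC CD69-lo 1 h replicate 1. Within each group every 6 h library held less Nr4a3 than any 1 h library. Cacnb3, a calcium channel subunit on the mature dendritic cell list, had 15.2, 19.8 and 16.4 CPM in MCC CD69-lo and 14.1, 17.8 and 9.43 CPM in NP at 1 h, where the ranges overlap, and 166 and 137 CPM in MCC CD69-lo and 21.9 and 16.5 CPM in NP at 6 h, a change of 2.66 ± 0.50 (adjusted p = 0.0333), which was lost in 8 of 15 alternatives. Samsn1, on the same list, changed by 1.91 ± 0.33 (adjusted p = 0.00734), and Spred1 by 1.74 ± 0.34 (adjusted p = 0.0333). Leaving out 1 of the 10 libraries in turn gave 0 to 4 such genes, with 0 without NP 1 h replicate 1.

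Between 6 and 24 h, 84 genes had a greater difference at 6 h (0.488%) and 86 a smaller one (0.5%). Interferon genes were among those with the smaller difference: 11 of 36 type I and 7 of 21 interferon gamma response genes differed less at 6 h. Gbp5, an interferon-induced GTPase, had 278 and 189.9 CPM in MCC CD69-lo and 220.2 and 140.2 CPM in NP at 6 h, and at 24 h 359, 452 and 425 CPM, against 39.0, 17.3 and 29.5 CPM in NP, a change of -3.48 ± 0.59 from 24 h to 6 h (adjusted p = 0.0038). Its ranges overlapped at 6 h and were separate at 24 h. Cd5 had a log2 fold change of 2.08 ± 0.42 at 6 h and -0.29 ± 0.36 at 24 h (change 2.38 ± 0.55, adjusted p = 0.0251), while Irf4 differed less at 6 h than at 24 h (-1.89 ± 0.39, adjusted p = 0.00864). Neutrophil markers summed to 5.17 and 41.3 CPM in MCC CD69-lo at 6 h, and to 177, 110.1 and 157 CPM at 24 h, against 3.88, 3.40 and 7.90 CPM in NP at 24 h. Without NP 6 h replicate 1 the counts were 0 and 4, and over all libraries left out they ran from 0 to 141 and from 4 to 140.

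**Figure D5:**
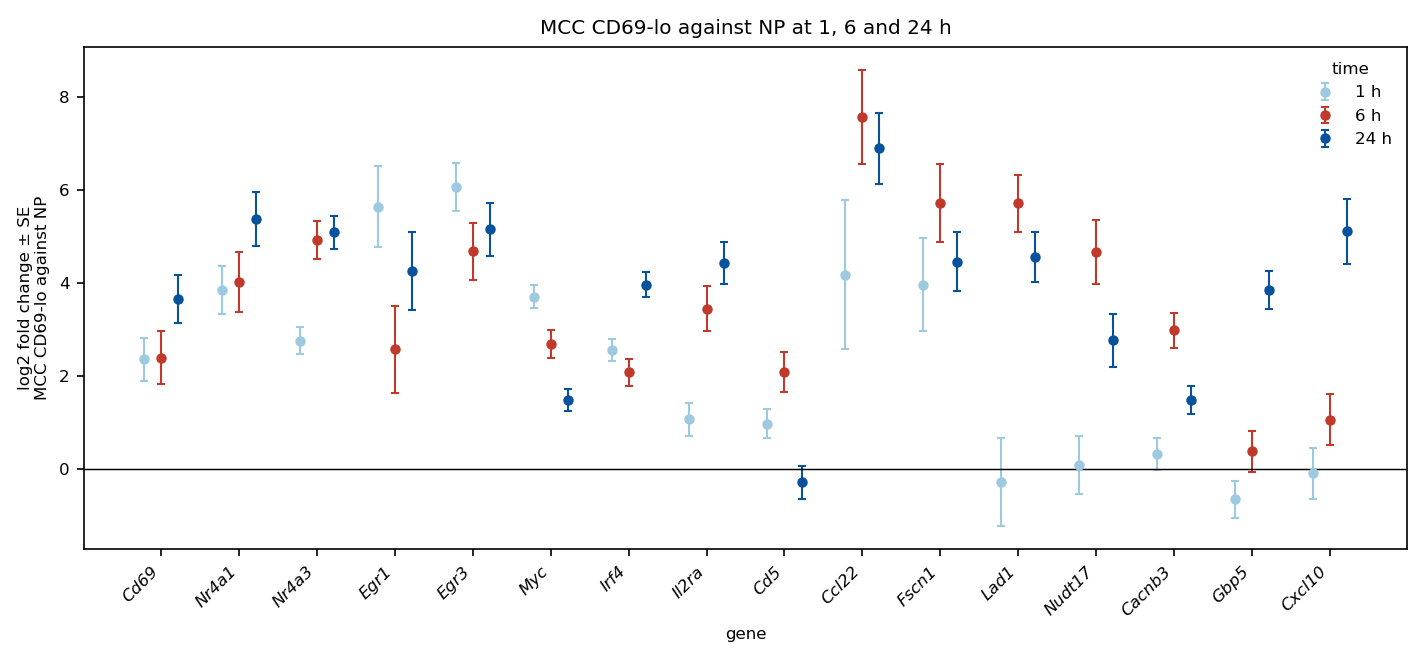
Log2 fold change of MCC CD69-lo against NP at 1, 6 and 24 h for 16 genes, with SE as bars. In edgeR's fit of all libraries, Nr4a3, Lad1, Nudt17 and Cacnb3 differ more at 6 h than at 1 h. Cd5 differs more, and Irf4, Gbp5 and Cxcl10 less, at 6 h than at 24 h. The changes from 1 h of Nr4a3, Lad1, Nudt17 and Cacnb3 were lost in 8 to 12 of 15 alternatives, and that of Cxcl10 from 24 h in 6. For the other 8 genes shown the change over time did not pass the test.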

How the data were processed

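The deposited table holds read counts per gene for all 51 libraries. Per the submitters' processing notes, bcl2fastq 2.20, STAR 2.6.1c and HTSeq 0.9.1 were used with genome build mm10; annotation release and strand setting are not given in the sources used here. The authors also deposited a table named TPM, whose columns do not sum to 1000000; no value given here comes from it. Of 34923 features, 17211 passed edgeR's filter on low counts. The counts were normalised by TMM and fitted in edgeR 4.0.16 (R 4.3.3; robust quasi-likelihood, 1 coefficient per group, all libraries), and p-values were adjusted by Benjamini-Hochberg over all genes, with calls under 0.05. Changes over time and the effect of GP were tested as contrasts of that fit. A value after ± beside a log2 fold change is the standard error, taken from the F statistic. Values in CPM are TMM-normalised; summed list levels are plain CPM. Counting intervals are exact binomial intervals at 95%, and a group at 0 was set to a floor of 3 counts. The code was tested on simulated counts. Replicate libraries of a group differed by more than sampling noise (chi-square per degree of freedom 11.2 in MCC CD69-lo and 11.6 in NP at 6 h).

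The comparison, the gene lists and the genes of the naming rule were chosen with earlier results of these data known. That rule names 18 panel genes, up to 12 rising and 6 falling genes by fold with at least 5 CPM and separate ranges, and 4 members per list by smallest p. Named outside it, after their values were seen, were Il3, Cd80, Cd83, Traf1, Relb, Ebi3, Batf3, Notch1, Notch2, Lyz2 and Csf1r. So were Ccr7, Ccl17, Il4i1, Cd274, Birc3 and the markers listed at 0 counts. Alternatives were size factors by RLE, no filter on low counts, DESeq2 1.42.0, smaller sets of libraries, a replicate block and leaving out each library.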

Additional observations from a re-analysis of the deposited data

Results flagged for a closer look

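The 19 genes below were taken by the size of their change. In each, the difference between MCC CD69-lo and NP at 6 h differed from that at 1 h or 24 h. This was by a test of the change (adjusted p under 0.05 in edgeR's quasi-likelihood test). Each change is in log2 units, 6 h minus the other time. Other genes passed too, among them Samsn1, Spred1, Gbp5, Cd5 and Irf4, given above.

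Against 1 h the change was 6 for Lad1, 4.58 for Nudt17, 2.83 for Fam129a, 2.66 for Cacnb3, 2.18 for Nr4a3 and 1.98 for Bcl2l1. Fam129a, a regulator of translation and stress responses, had 122 and 84.6 CPM in MCC CD69-lo and 10.5 and 12.3 CPM in NP at 6 h. At 1 h it had 10.5, 17.1 and 13.8 CPM in MCC CD69-lo and 9.38, 10.8 and 13.3 CPM in NP. Btbd19 ran the other way, at -1.88, with 57.0, 38.8 and 23.6 CPM in MCC CD69-lo and 9.53, 7.20 and 10.3 CPM in NP at 1 h, and 16.6 and 14.3 CPM in MCC CD69-lo and 12.8 and 13.2 CPM in NP at 6 h. None of the 7 passed without any 1 of the 6 h libraries, without NP 1 h replicate 1 or without NP 1 h replicate 2, and each was lost in 8 to 12 of 15 alternatives. Lad1 and Bcl2l1 were also lost with RLE size factors.

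Against 24 h the change was 6.61 for Shtn1, 4.63 for Gm7334, 4.04 for Itga7, 3.21 for Lpar5, 2.73 for Ankrd13b and 2.51 for Ptgfrn. It was -9.71 for Cdh1, -8.42 for Unc80, -4.62 for Gbp11, -4.23 for Ephb2, -4.05 for Cxcl10 and -3.99 for Igfbp4. Cdh1 had 0 counts in both MCC CD69-lo libraries at 6 h, against 5 counts in NP, so its value depends on the prior count and is no measured size. Those of Shtn1, Unc80 and Itga7 come from fits with 0 counts in at least 1 library and also depend on it. Of these 12 genes Gbp11 passed under every alternative. The other 11 were lost without NP 6 h replicate 1, and each was lost in 2 to 11 of 15 alternatives; with only the compared groups Cdh1, Cxcl10 and Gbp11 passed. Ptgfrn, a cell surface protein, had 2.83, 5.51 and 7.63 CPM in MCC CD69-lo and 19.1, 55.9 and 37.1 CPM in NP at 24 h, and 27.4 and 27.0 CPM in MCC CD69-lo and 26.8 and 35.9 CPM in NP at 6 h. Cxcl10, an interferon-induced chemokine, had 17.9, 26.9 and 17.8 CPM in MCC CD69-lo and 1.00, 0.188 and 0.608 CPM in NP at 24 h, and 45.9 and 31.9 CPM in MCC CD69-lo and 27.8 and 9.498 CPM in NP at 6 h. Gbp11, an interferon-induced GTPase, had 285, 245 and 118 CPM in MCC CD69-lo and 11.1, 4.52 and 8.66 CPM in NP at 24 h, and 53.0 and 33.7 CPM in MCC CD69-lo and 55.7 and 24.3 CPM in NP at 6 h.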

How the results depend on the processing

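For MCC CD69-lo against NP, the counts of higher and lower genes were 557 and 33 with only the compared groups, 551 and 4 with a replicate block taken from the endings of the sample titles, and 994 and 206 with both. The fit with both nevertheless did not call 10 named genes: Cd69, Nr4a1, Egr2, Egr3, Myc, Slamf1, Cd6, Tnf, Ccl5 and Apol7c. Over the lists, the block gave 8 higher B cell markers, 7 MHC class II genes, 9 amino acid genes and 1 gene each of the macrophage, NK and interferon gamma lists; with only the compared groups it gave 20, 6, 18, 2, 3 and 3, 1 neutrophil marker, 2 type I interferon genes and 6 lower naive genes. The lower count was 1 with RLE size factors, 2 without a filter, 96 with DESeq2 and 11 with only the 6 h groups. Same-numbered replicates deviated together with a correlation of 0.276 over 7189 genes, and Xist was low in replicate 1 and high in replicate 2 of both groups. There are only 2 pairs, and the labels do not say that a number marks a shared animal or day. Leaving out 1 library gave 112 to 261 higher and 0 to 1 lower genes. Of 75 named genes called, 33 passed under every alternative, 42 were lost under at least 1 and 0 reversed; 28 were lost without NP replicate 2. For the change from 1 h, the greater count was 21 without a filter, 26 with DESeq2 and 27 with only the compared groups, and the smaller count 6, 5 and, with the block, 3. For the change from 24 h these counts were 150 and 162 without a filter, 273 and 311 with DESeq2, 181 and 166 with the block, and the greater count was 41 with only the compared groups. For MCC+GP CD69-lo against GP, DESeq2 called 1400 lower genes. Leaving out 1 library gave 0 to 4 and 0 to 1 genes for the change from 1 h, 0 to 141 and 4 to 140 for that from 24 h, 548 to 1472 and 98 to 747 for MCC+GP CD69-lo against GP, 3079 to 3562 and 2695 to 3331 for MCC CD69-lo against MCC CD69-hi, and 3542 to 4168 and 3247 to 3482 for MCC+GP CD69-lo against MCC+GP CD69-hi. The causes of these moves were not tested. In MCC CD69-lo against NP the median standard error of genes above 50 CPM was 0.206 on the log2 scale.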
